A study of Mus musculus with 23 samples.

Results

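The 10 genes described here carry the insulin and insulin-like growth factor 1 (IGF1) signal: Insr, Irs1, Irs2, Akt1, Akt2, Slc2a4, Igf1, Igf1r, Igfbp4 and Igfbp5. They were taken by gene symbol from a count table of 24062 genes, in which all 10 were found. Insulin and IGF1 bind receptor tyrosine kinases at the cell surface, the insulin receptor (Insr) and the IGF1 receptor (Igf1r). The activated receptor phosphorylates the adaptor proteins IRS1 and IRS2, which recruit phosphoinositide 3-kinase, and the lipid it makes brings the AKT kinases to the membrane. In fat and skeletal muscle, AKT2 activity moves the glucose transporter GLUT4, the product of Slc2a4, to the cell surface. Binding proteins such as IGFBP4 and IGFBP5 hold IGF1 outside the cell and alter its access to the receptor.

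Polyadenylated RNA of whole gastrocnemius muscle and whole fat (labelled IAT, an abbreviation the labels do not spell out) was sequenced in 23 libraries from mice of 8 to 10 months on a 129Sve/C57BL/6 mixed background. The groups were wild type (WT), HL1002P, which carries the BubR1 alleles H and L1002P, and HH, which carries the H allele on both chromosomes. BubR1, encoded by Bub1b, is a protein of the mitotic spindle checkpoint. H is a hypomorphic allele, and the alleles are present in the whole animal, not in 1 tissue. Gastrocnemius was represented by 4 WT, 4 HL1002P and 3 HH libraries and fat by 4 of each. The labels give no treatment and name neither sex nor animal, so p-values measure the spread between these libraries, which may in part be technical.

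Library totals ranged from 34137821 to 55266273 counts in gastrocnemius and from 22552184 to 58828571 in fat, and levels are normalised read counts (CPM, counts-per-million) on library sizes scaled within each tissue. In gastrocnemius Bub1b stood at 0.726 to 0.952 CPM in WT, 0.181 to 0.273 CPM in HL1002P and 0.326 to 0.520 CPM in HH. In fat it stood at 7.08 to 11.6 CPM in WT, 6.12 to 22.1 CPM in the libraries labelled HL1002P and 5.96 to 14.3 CPM in those labelled HH, so the transcript was not lower there and does not check the fat labels. Summed markers of muscle fibres were 151261 to 213994 CPM in gastrocnemius, and summed markers of fat cells were 16029 to 61449 CPM in fat, with no marker of either list at 0 in its tissue. In fat, 3 libraries also held over 5000 CPM of muscle fibre markers (WT replicate 3, HL1002P replicate 4 and HH replicate 1). Summed lymphocyte markers in fat were 71.2 to 748 CPM in WT, 1487 to 3978 CPM in HL1002P and 1865 to 3597 CPM in HH. Xist marked 2 WT, 2 HL1002P and 1 HH gastrocnemius libraries and 2 WT, 1 HL1002P and 1 HH fat libraries as female. The female fat libraries were WT replicates 3 and 4, HL1002P replicate 4 and HH replicate 4.

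Irs2 is the gene of this set that passed the test against WT in the fat of both mutants. Its 250 bases of promoter are shown with those of Irs1, the other insulin receptor substrate, and of Igf1, Igfbp5 and Akt2, which each passed a test in the fat of 1 mutant. The sequences are RefSeq's for GRCm38.p6, each written 5′ to 3′ on the gene's own strand and ending at the base before an annotated start. For Igf1 this start lies inside the gene's span (chr10:87858265-87937042), so its window is not the one before the gene's first base. Of the 10 genes, 8 had an entry in the promoter table, and Insr and Slc2a4 are named only. Capitals mark matches, on either strand, to the motifs searched: the TATA-box core TATAAA, the CCAAT box, the GC box GGGCGG, the forkhead motif GTAAACA, the STAT motif TTCNNNGAA (N is any base) and the E-box CACGTG.
Irs2, chr8:11008930-11009179, minus strand: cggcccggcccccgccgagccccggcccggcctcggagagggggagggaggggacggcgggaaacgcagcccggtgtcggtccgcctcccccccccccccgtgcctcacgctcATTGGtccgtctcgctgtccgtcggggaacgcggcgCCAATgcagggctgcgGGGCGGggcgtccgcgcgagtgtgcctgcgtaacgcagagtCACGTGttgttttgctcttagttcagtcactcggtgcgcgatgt
Irs1, chr1:82291440-82291689, minus strand: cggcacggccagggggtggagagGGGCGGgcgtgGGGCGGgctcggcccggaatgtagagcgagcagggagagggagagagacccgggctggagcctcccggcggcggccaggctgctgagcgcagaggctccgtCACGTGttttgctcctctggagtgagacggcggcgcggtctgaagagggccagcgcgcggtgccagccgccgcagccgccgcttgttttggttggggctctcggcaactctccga
Igf1, chr10:87860861-87861110, plus strand: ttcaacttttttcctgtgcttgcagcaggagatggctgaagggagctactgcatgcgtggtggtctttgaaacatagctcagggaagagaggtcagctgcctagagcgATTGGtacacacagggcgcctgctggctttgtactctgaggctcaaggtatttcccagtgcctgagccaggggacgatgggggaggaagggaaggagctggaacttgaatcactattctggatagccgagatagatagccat
Igfbp5, chr1:72874866-72875115, minus strand: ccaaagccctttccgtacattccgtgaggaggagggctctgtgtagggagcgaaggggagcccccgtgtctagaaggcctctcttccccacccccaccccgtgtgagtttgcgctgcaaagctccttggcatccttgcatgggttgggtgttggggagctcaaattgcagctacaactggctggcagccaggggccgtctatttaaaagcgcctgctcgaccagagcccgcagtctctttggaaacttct
Akt2, the first of 4 annotated starts, chr7:27591302-27591551, plus strand: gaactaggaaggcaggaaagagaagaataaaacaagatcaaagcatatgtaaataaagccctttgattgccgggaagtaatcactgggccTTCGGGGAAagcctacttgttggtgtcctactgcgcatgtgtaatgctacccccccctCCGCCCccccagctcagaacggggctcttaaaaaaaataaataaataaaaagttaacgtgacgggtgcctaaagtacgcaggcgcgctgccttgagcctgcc

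The E-box CACGTG was present in the Irs1 and Irs2 windows and in no other of the 12 member windows, and it is held by 6.02% of 32851 windows of the same length. Irs2 also held CCAAT on both strands, a motif of 33.8% of windows, and the Irs1 and Irs2 windows both held GGGCGG, found in 32.7%. GC content was 72.8% in the Irs2 window and 72.4% in the Irs1 window, against 52.8% for Igf1, 58.8% for Igfbp5 and 48.8% for Akt2. The Igf1 window held CCAAT on the reverse strand, and the Igfbp5 window held none of the 6 motifs. The Akt2 window held TTCNNNGAA, found in 7.02% of windows, and GGGCGG on the reverse strand. The forkhead motif, found in 3.17% of windows, occurred in 1 member window, that of the first Akt1 start, and TATAAA, found in 12.4%, in that of Igfbp4. These matches describe letters in a window and are not measured binding sites.

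The levels of the 10 genes differed more between tissues than between genotypes for Slc2a4, Igf1 and Igfbp4. Slc2a4 ranged from 605.9 to 778.9 CPM over the 11 gastrocnemius libraries and from 99.1 to 296 CPM over the 12 fat libraries. Igf1 ran the other way, from 4.88 to 17.9 CPM in gastrocnemius and from 89.5 to 341 CPM in fat. Igfbp4 ranged from 54.2 to 120 CPM in gastrocnemius and from 419 to 1001 CPM in fat. Neither tissue overlapped the other for these 3 genes, nor for Akt1 (64.9 to 131 CPM and 155 to 239 CPM), which makes 4 of 10 genes beside 59.1% of all 16863. The tissues overlapped for the other 6.

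In 1 edgeR fit of all libraries, WT gastrocnemius exceeded WT fat in Slc2a4 by log2 2.81 ± 0.29 (SE, edgeR adjusted p = 4.44e-08). It was lower in Igf1 by log2 -3.45 ± 0.35 (edgeR adjusted p = 4.11e-08) and in Igfbp4 by log2 -2.18 ± 0.26 (edgeR adjusted p = 2.92e-07). In all, 6 of the 10 genes passed this test (Slc2a4, Igf1, Igfbp4, Insr, Irs1 and Akt2), beside 73.5% of all 16863 genes tested. The scaling of the tissues to each other set the value of the others: Akt1 did not differ past the test with edgeR's factors (log2 -0.00 ± 0.13, edgeR adjusted p = 0.978) and stood at -1.18 on library size alone. These factors differed between the tissues by log2 1.24, and Insr, Irs1 and Akt2 were higher in gastrocnemius with them (0.47, 0.94 and 0.67) and lower on library size alone (-0.70, -0.28 and -0.47). On library size alone Slc2a4 (1.64), Igf1 (-4.56) and Igfbp4 (-3.33) kept their direction. The tissues were extracted with different RNA kits, so tissue and kit cannot be told apart.

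**Figure D1:**
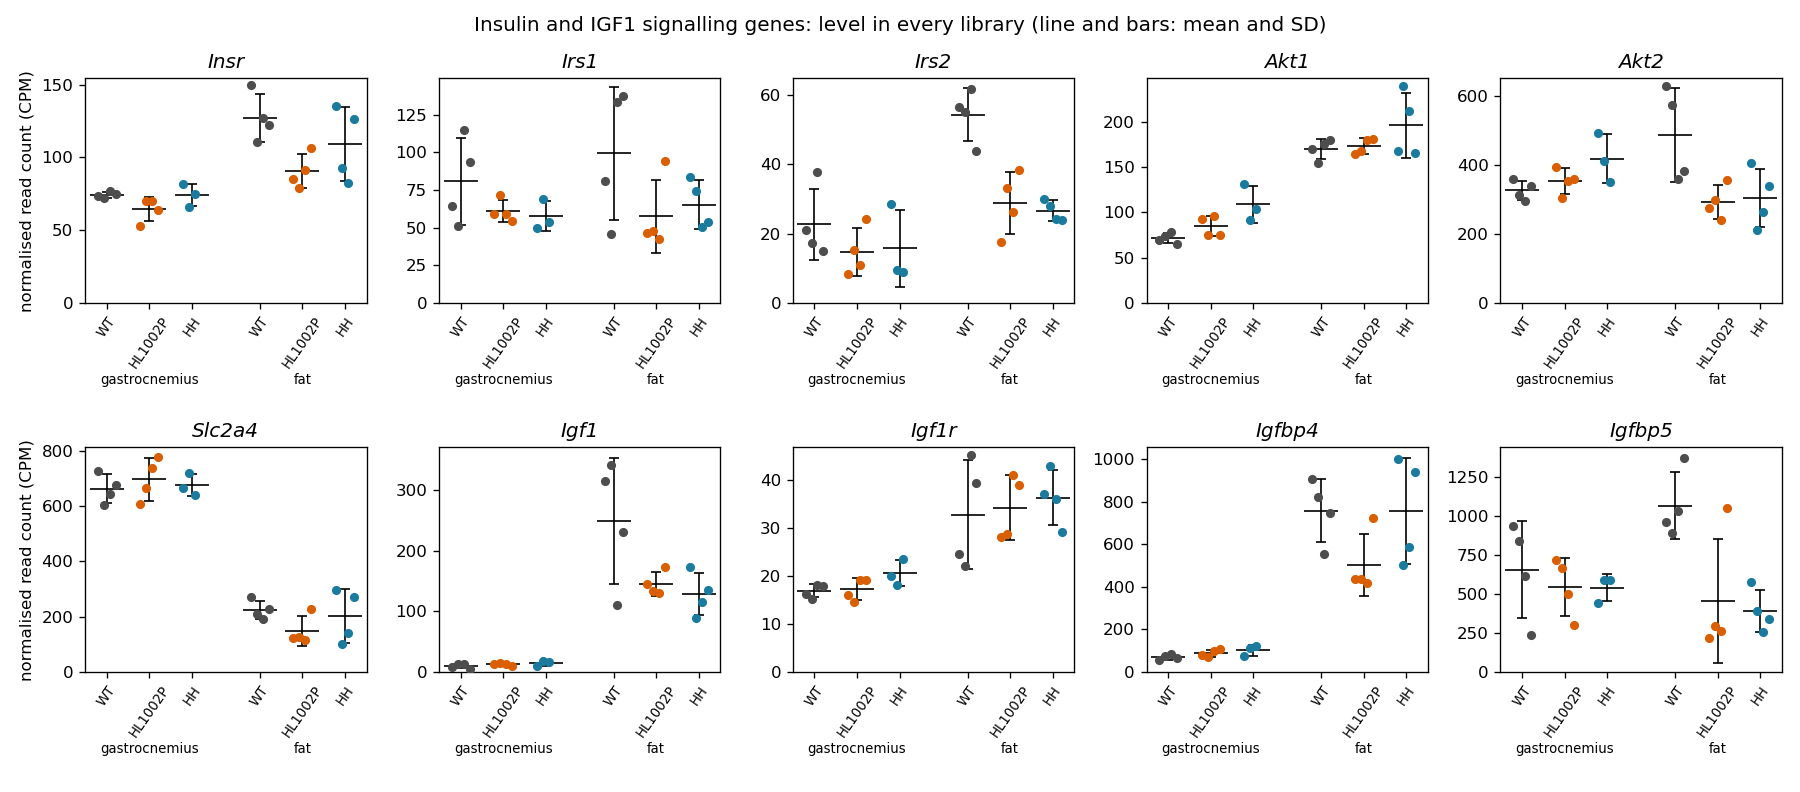
Normalised read count (CPM, linear axes from 0) of each gene in every library, in gastrocnemius and fat of WT (grey), HL1002P (orange) and HH (blue), with the mean and SD of each group. Slc2a4 was high in gastrocnemius (605.9 to 778.9 CPM) and Igf1 and Igfbp4 in fat, and the 8 mutant fat libraries of Irs2 (17.5 to 38.3 CPM) lay below the 4 WT libraries (43.7 to 61.8 CPM).

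Per kilobase of exon, the order of the genes differed between the tissues. In WT gastrocnemius the highest mean was that of Slc2a4, at 191 ± 14.8 CPM per kb (SD, n = 4), followed by Igfbp5 at 109 ± 51.6 and Akt2 at 45.8 ± 3.91. Igf1 (0.966 ± 0.415 CPM per kb) and Igf1r (1.005 ± 0.0825) were lowest there. In WT fat, Igfbp5 (178 ± 35.6 CPM per kb) and Igfbp4 (172 ± 33.7) were highest and did not differ beyond their SDs, followed by Akt2 (68.3 ± 19.1) and Slc2a4 (64.7 ± 9.53), which also lay within their SDs. Of the receptors, Insr stood above Igf1r in both tissues, at 5.39 ± 0.151 against 1.005 ± 0.0825 CPM per kb in WT gastrocnemius and 9.25 ± 1.19 against 1.95 ± 0.674 in WT fat. Of the adaptors, Irs1 (8.82 ± 3.13) stood above Irs2 (3.59 ± 1.63) in WT gastrocnemius, while in WT fat Irs1 (10.9 ± 4.83) and Irs2 (8.59 ± 1.205) lay within their SDs. Akt2 exceeded Akt1 in WT gastrocnemius (45.8 ± 3.91 against 17.5 ± 1.43) and in WT fat (68.3 ± 19.1 against 41.5 ± 2.68). In fat labelled HL1002P the AKT genes lay side by side, with Akt2 at 41.1 ± 6.82 and Akt1 at 42.3 ± 2.05 CPM per kb.

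In fat, Irs2, Insr and Akt2 were lower in HL1002P than in WT, by 1.89-fold, 1.41-fold and 1.66-fold, and none of the 10 genes was higher. In HH, Irs2 was 2.04-fold, Igf1 1.94-fold and Igfbp5 2.73-fold lower than in WT, and again none of the genes was higher. These counts of 3 in each mutant stand beside 14.5% of the 16266 genes tested that were lower in HL1002P and 8.59% that were lower in HH, with 31.8% and 20.8% past the test in either direction. The groups of 3 genes in HL1002P and 2 in HH did not overlap WT, beside 27.5% and 25.9% of all genes. The median log2 fold change of the 10 genes was -0.67 in HL1002P and -0.41 in HH, beside -0.07 and -0.06 over all genes tested. Both comparisons use the same 4 WT libraries. The genotype labels of fat have no check by Bub1b, as given above.

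Igf1 (chr10:87858265-87937042), the ligand, stood at 314, 341, 110 and 231 CPM in WT fat. It stood at 144, 134, 130 and 174 CPM in fat labelled HL1002P and at 172, 89.5, 115 and 135 CPM in fat labelled HH. WT replicate 3, a female library high in muscle fibre markers, lay among the mutant libraries, and the other 3 WT libraries lay above all 8 of them. The log2 fold change was -0.78 ± 0.31 in HL1002P (edgeR adjusted p = 0.0722) and -0.96 ± 0.31 in HH (edgeR adjusted p = 0.0480). Without WT replicate 3 both passed the test, at -1.02 and -1.21 (edgeR adjusted p = 0.0109 and 0.0130). The HH call passed in 2 of 8 fits that left out 1 library and was lost without WT replicate 1, 2 or 4 or HH replicate 2, 3 or 4. Within male libraries the values were -1.26 and -1.37 (edgeR adjusted p = 0.00631 and 0.00734), and within female libraries 0.03 and -0.34 (edgeR adjusted p = 0.998 and 0.784).

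Igfbp5 (chr1:72857932-72874884), an IGF-binding protein that also binds extracellular matrix, stood at 966, 896, 1034 and 1377 CPM in WT fat. It stood at 216, 295, 265 and 1053 CPM in fat labelled HL1002P and at 576, 391, 257 and 342 CPM in fat labelled HH. All HH libraries lay below WT, and of the HL1002P libraries only replicate 4 reached the WT range. The log2 fold change was -1.22 ± 0.47 in HL1002P (edgeR adjusted p = 0.0647) and -1.45 ± 0.47 in HH (edgeR adjusted p = 0.0495), and without HL1002P replicate 4 the HL1002P value was -1.99 (edgeR adjusted p = 0.00109). The HH call passed in 1 of 8 fits that left out 1 library, the fit without HH replicate 1. With the lymphocyte markers as a covariate the values were -0.39 and -0.64 (edgeR adjusted p = 0.995 and 0.924).

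Igfbp4 (chr11:99041244-99054392), an IGF-binding protein cleaved by pappalysin, stood at 905, 823, 557 and 745 CPM in WT fat, at 437, 438, 419 and 723 CPM in fat labelled HL1002P and at 1001, 501, 586 and 942 CPM in fat labelled HH. HL1002P replicates 1 to 3 lay below every WT library, whereas replicate 4 did not, and the HH libraries fell to both sides of WT. The log2 fold change was -0.59 ± 0.27 in HL1002P (edgeR adjusted p = 0.115) and -0.00 ± 0.27 in HH (edgeR adjusted p = 0.9997).

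The insulin receptor gene Insr (chr8:3122061-3279617) stood at 149, 110, 127 and 122 CPM in WT fat. It stood at 85.2, 79.0, 91.0 and 106 CPM in fat labelled HL1002P, all below the lowest WT library, and at 135, 92.5, 82.4 and 126 CPM in fat labelled HH, which overlapped WT. Insr differed by log2 -0.49 ± 0.17 in HL1002P (edgeR adjusted p = 0.0459) and -0.22 ± 0.17 in HH (edgeR adjusted p = 0.343). The HL1002P call passed in 1 of 8 fits that left out 1 library, the fit without HL1002P replicate 4. With the lymphocyte markers as a covariate the HL1002P value was 0.0141 (edgeR adjusted p = 0.9999). The receptor for IGF1, Igf1r, stood at 24.5, 21.96, 45.2 and 39.4 CPM in WT fat, at 28.0, 28.6, 41.0 and 38.9 CPM in fat labelled HL1002P and at 37.0, 43.0, 36.0 and 29.1 CPM in fat labelled HH. All 3 groups overlapped, and the log2 fold changes were 0.06 ± 0.24 and 0.15 ± 0.24 (edgeR adjusted p = 0.856 and 0.666). The highest 2 WT libraries of Igf1r were the female ones. Within male libraries Igf1r was higher in HH by log2 0.76 (edgeR adjusted p = 0.0211).

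**Figure D2:**
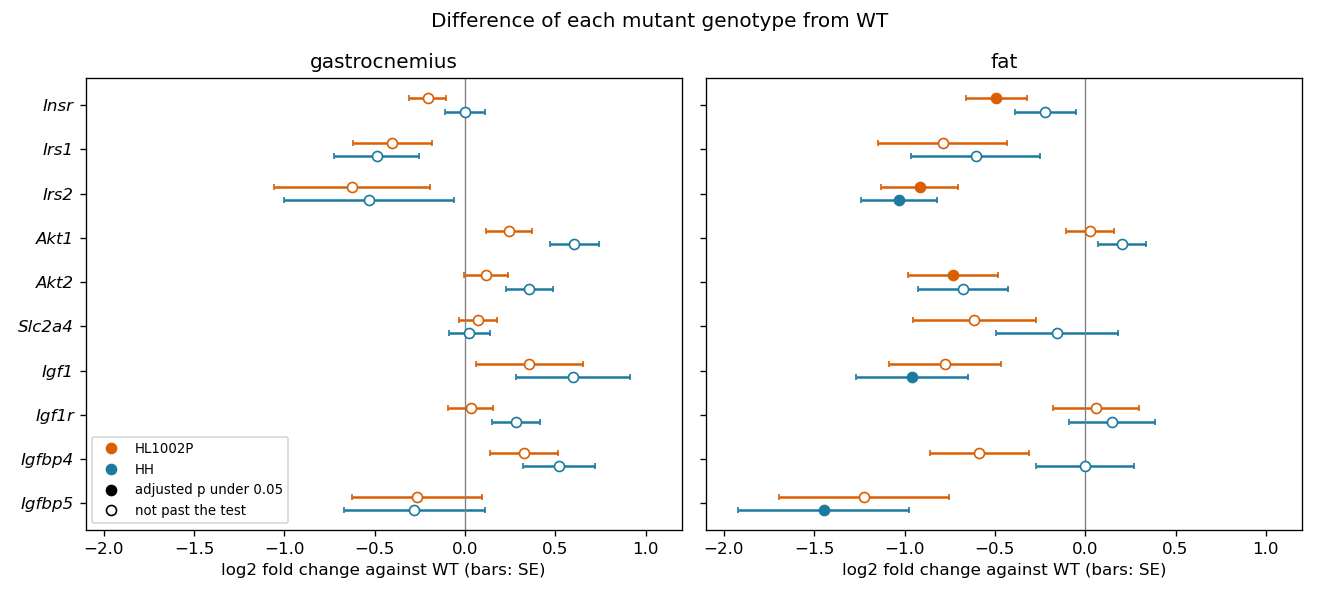
Log2 fold change against WT (points) with its SE (bars) for each gene in gastrocnemius (left) and fat (right), in HL1002P (orange) and HH (blue); filled points have an edgeR adjusted p under 0.05. No point is filled in gastrocnemius, and in fat the filled points are Insr, Irs2 and Akt2 for HL1002P and Irs2, Igf1 and Igfbp5 for HH, all below 0.

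Irs2 (chr8:10984681-11008458), an adaptor of both receptors, stood at 56.6, 55.04, 61.8 and 43.7 CPM in the WT fat libraries. It stood at 17.5, 33.1, 26.1 and 38.3 CPM in fat labelled HL1002P and at 30.1, 28.0, 24.3 and 23.9 CPM in fat labelled HH. All 8 mutant libraries lay below all 4 WT libraries, and the HH libraries spanned the narrowest range. Its log2 fold change was -0.92 ± 0.21 in HL1002P (edgeR adjusted p = 0.0123) and -1.03 ± 0.21 in HH (edgeR adjusted p = 0.0129). No single library decided the call. The fall passed the test in each of the 8 fits of each mutant that left out 1 library, with log2 fold changes from -1.02 to -0.74 in HL1002P and from -1.12 to -0.94 in HH. It did not pass within female libraries or with a marker covariate. Within male libraries (2 WT, 3 HL1002P, 3 HH) it was -1.12 and -1.005 (edgeR adjusted p = 0.00830 and 0.0158), and within female libraries, of which each mutant has 1, it was -0.46 and -1.15 (edgeR adjusted p = 0.956 and 0.201). With the lymphocyte markers as a covariate the values were -0.69 and -0.82 (edgeR adjusted p = 0.995 and 0.923), and with the fat cell markers -0.76 and -0.91 (edgeR adjusted p = 0.217 and 0.0791).

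Irs1 (chr1:82233101-82291416), the other adaptor, did not pass the test in either mutant. It stood at 80.9, 45.4, 133 and 137 CPM in WT fat, at 46.3, 47.6, 42.3 and 93.9 CPM in fat labelled HL1002P, and at 83.4, 74.0, 50.1 and 53.6 CPM in fat labelled HH. The groups overlapped, and the 2 female WT libraries were the highest. Irs1 differed by log2 -0.79 ± 0.36 in HL1002P (edgeR adjusted p = 0.107) and -0.61 ± 0.36 in HH (edgeR adjusted p = 0.223).

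Akt2 (chr7:27591552-27640826), the AKT kinase of insulin-stimulated glucose uptake, stood at 631, 575, 359 and 384 CPM in WT fat. It stood at 277, 298, 242 and 358 CPM in fat labelled HL1002P and at 405, 211, 263 and 340 CPM in fat labelled HH. The HL1002P libraries lay below WT, the highest of them (357.6 CPM) just under the lowest WT library (359.4 CPM), while 1 HH library lay within WT. The WT libraries fell apart by sex, the male pair (631 and 575 CPM) above the female pair (359 and 384 CPM). The male pair also held more summed fat cell markers (60841 and 61449 CPM) than the female pair (28673 and 31574 CPM). Sex and these markers cannot be told apart in WT fat, and the values within males rest on this male pair. Akt2 differed by log2 -0.73 ± 0.25 in HL1002P (edgeR adjusted p = 0.0424) and -0.68 ± 0.25 in HH (edgeR adjusted p = 0.0692). Within male libraries it was -1.14 and -1.03 (edgeR adjusted p = 0.0113 and 0.0206), and within female libraries -0.05 and -0.13 (edgeR adjusted p = 0.989 and 0.787). The HL1002P call held in 3 of 8 fits that left out 1 library, and it was lost without WT replicate 1 or 2 or HL1002P replicate 1, 2 or 3. With the fat cell markers as a covariate the HL1002P value was -0.07 (edgeR adjusted p = 0.803). Akt1 (chr12:112653821-112674884), the widely expressed AKT kinase, stood at 170, 155, 176 and 180 CPM in WT fat, at 164, 168, 180 and 181 CPM in fat labelled HL1002P and at 168, 239, 212 and 166 CPM in fat labelled HH. The groups overlapped, and the log2 fold changes were 0.03 ± 0.13 and 0.20 ± 0.13 (edgeR adjusted p = 0.886 and 0.260).

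Slc2a4 (chr11:69942539-69948188), the glucose transporter gene, stood at 269, 210, 192 and 229 CPM in WT fat, at 121, 124, 115 and 229 CPM in fat labelled HL1002P and at 296, 99.1, 141 and 271 CPM in fat labelled HH. HL1002P replicate 4 lay within the WT range, HH replicates 1 and 4 lay above it, and the other 5 mutant libraries lay below it. HL1002P replicate 4 and HH replicate 1 were high in muscle fibre markers (6115 and 15372 CPM), whereas HH replicate 4 was not (53.3 CPM). WT replicate 3, the lowest WT library, was also high in them (16201 CPM). The part of muscle RNA in these levels was not tested. Its log2 fold changes were -0.61 ± 0.34 and -0.16 ± 0.34 (edgeR adjusted p = 0.176 and 0.751).

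Between the mutants in fat, none of the 10 genes differed past the test, which passed 0% of all genes in edgeR (535 genes at an unadjusted p under 0.05, 21 genes past DESeq2's adjusted p). None of the 10 had an unadjusted p under 0.05 either. The gene nearest to it was Igfbp4, at log2 -0.59 ± 0.27 in HL1002P relative to HH (edgeR adjusted p = 0.999).

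The markers of other cells moved with these results in fat. Of 12 lymphocyte markers, 12 were higher than in WT in HL1002P and 10 in HH, and none was at 0 in any fat library. Of 12 fat cell markers, 7 were lower in HL1002P and 1 was higher in HH, with summed levels of 28673 to 61449 CPM in WT, 16029 to 30172 CPM in HL1002P and 17210 to 42554 CPM in HH. Of 10 fibroblast markers, 6 were lower in HL1002P and 5 in HH, and of 10 endothelial markers 6 and 4 were lower. Fat cell, fibroblast and endothelial markers, those of the resident tissue, were thus more often lower than higher in HL1002P. Of 12 macrophage markers 1 was higher in HL1002P and 0 in HH, with summed levels of 1789 to 2250 CPM in WT, 1662 to 3913 CPM in HL1002P and 2049 to 4558 CPM in HH. Across the 12 fat libraries, Akt2 followed the summed fat cell markers (Spearman's rho 0.930) and the fibroblast markers (0.916), and Igf1 followed the fat cell markers (0.818). Igfbp5 and Insr ran opposite to the lymphocyte markers (-0.881 and -0.846). The rho of Irs2 was 0.476 with the fat cell markers and -0.776 with the lymphocyte markers. With the fibroblast, endothelial and muscle fibre markers it was 0.769, 0.734 and 0.748. Igfbp5 also followed the fibroblast markers (0.811). These correlations are descriptions over 12 libraries of 3 genotypes, in which genotype, sex and depth also differed. No mutant fat library overlapped WT in summed lymphocyte markers, so this covariate and genotype can hardly be told apart. With it 0 of all genes passed in either mutant, and with the fat cell covariate 1 passed in HL1002P and 364 in HH. The covariate values therefore do not test the part of these cells. In bulk tissue fewer cells of a type and less RNA per cell cannot be told apart.

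**Figure D3:**
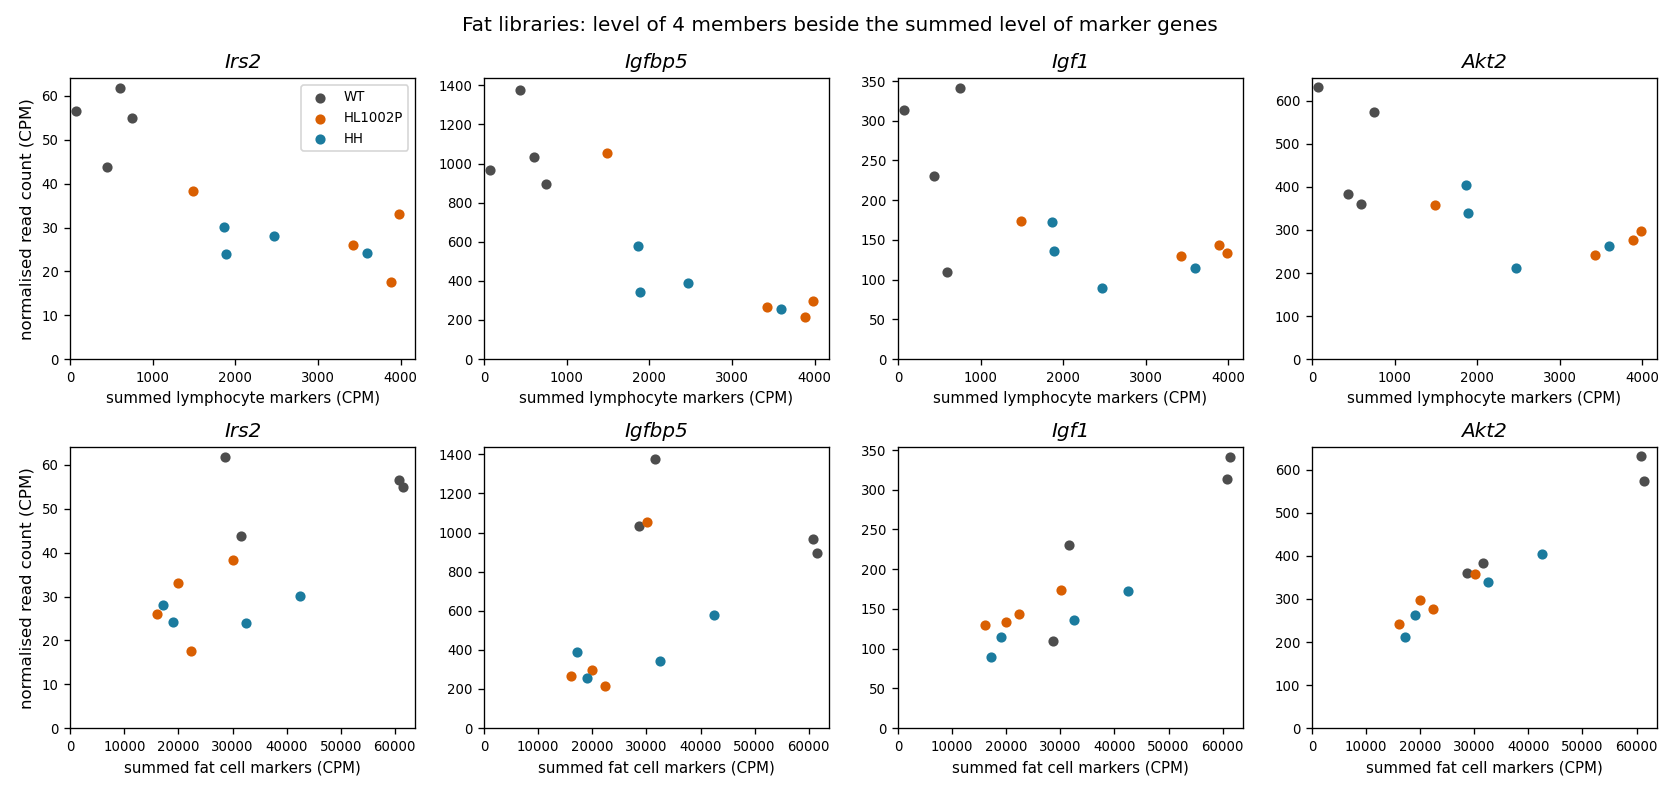
Normalised read count (CPM) of Irs2, Igfbp5, Igf1 and Akt2 in the 12 fat libraries against the summed lymphocyte markers (upper row) and fat cell markers (lower row) of the same library, coloured by genotype. WT libraries lie at 71.2 to 748 CPM of lymphocyte markers and mutant libraries at 1487 to 3978 CPM, and Akt2 rises with the fat cell markers.

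The number of genes that passed changed on leaving out the 3 fat libraries with over 5000 CPM of muscle fibre markers, 1 of each genotype. Without them, 8 of the 10 genes passed in HL1002P and 4 in HH, in place of 3 and 3, and Irs2 stood at log2 -1.02 and -1.03 (edgeR adjusted p = 0.00719 and 0.0108). Over all genes, HH passed 5505 of 16176 without them, in place of 3391 of 16266. This fit also leaves out the only female HL1002P fat library, replicate 4, and WT replicate 3, also female, so fibre markers and sex cannot be told apart in it. The HL1002P count over all genes is not given for this fit, for males or for the fits without 1 library. The HL1002P counts of those fits therefore have no share of all genes beside them and are not read as particular to these genes. Without HL1002P replicate 4 alone, 7 genes passed in HL1002P. Without WT replicate 1 or any of HL1002P replicates 1 to 3, 1 passed, and without WT replicate 2 or 4, 2 passed. In HH, 1 passed without WT replicate 1, 2 or 4 or HH replicate 2, 3 or 4, and 4 passed without HH replicate 1. In males the counts were 5 and 5 (Igf1r, higher, among the 5 in HH), and in females 0 and 0. With 1 female library a mutant, the lone library is assumed to vary like the others. Over all genes, HH passed 6246 of 16584 in males. In males low in fibre markers, 7 of the 10 genes passed in HL1002P and 9 in HH, beside 8773 and 8357 of all 16423 genes.

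In gastrocnemius none of the 10 genes passed the test in any comparison of genotypes, and the test passed 0.117% of 14580 genes for HL1002P against WT, 0.377% for HH against WT and 0.0206% for HL1002P against HH. At an unadjusted p under 0.05 the counts of the 10 genes were 0, 3 and 1, beside 1537, 2413 and 670 of all 14580 genes. With DESeq2 1 of the 10 passed, Akt1 in HH against WT, beside 628 of all 15594 genes. The median log2 fold change of the 10 genes was 0.05 in HL1002P and 0.15 in HH, beside 0.00 and 0.01 over all genes. Markers of fibres and of other cells showed no call beside these genes. Fibre markers were at 158288 to 213994 CPM in WT, 168756 to 197276 CPM in HL1002P and 151261 to 194270 CPM in HH. Summed macrophage markers were 66.2 to 186 CPM in WT, 153 to 469 CPM in HL1002P and 202 to 287 CPM in HH, with 0 of 12 past the test in either mutant. Summed lymphocyte markers were at most 7.13 CPM in any gastrocnemius library. Summed mammary epithelium markers were low, at 1.32 to 3.12 CPM in WT, 6.75 to 157 CPM in HL1002P and 9.82 to 49.3 CPM in HH. Across the 11 gastrocnemius libraries the largest rho were those of Irs1 with fibre markers (0.827), Igfbp4 with macrophage markers (0.800) and Akt2 with mammary markers (0.782). The part of these cells was not tested.

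The ligand and its binding proteins also overlapped between the gastrocnemius groups. Igf1 stood at 7.35, 12.98, 13.04 and 4.88 CPM in WT, at 13.2, 14.6, 12.2 and 8.997 CPM in HL1002P and at 9.85, 17.9 and 15.6 CPM in HH. Its differences were log2 0.36 ± 0.30 and 0.60 ± 0.32 (edgeR adjusted p = 0.711 and 0.369). Igfbp4 stood at 54.2, 75.7, 84.4 and 67.2 CPM in WT, at 78.6, 70.8, 96.5 and 107 CPM in HL1002P and at 72.2, 110 and 120 CPM in HH. The HH difference was log2 0.52 ± 0.20 (edgeR adjusted p = 0.227). Igfbp5 spread widely in WT, at 937, 838, 616 and 238 CPM in WT, 719, 667, 499 and 302 CPM in HL1002P and 440, 593 and 593 CPM in HH, with differences of log2 -0.27 ± 0.36 and -0.28 ± 0.39 (edgeR adjusted p = 0.832 and 0.766).

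The groups of 3 genes did not overlap in gastrocnemius: Akt1 and Igf1r were above WT in every HH library and Insr was below WT in every HL1002P library. This is 2 of 10 genes in HH, where the groups of 13.9% of all genes did not overlap, and 1 of 10 in HL1002P, where it was 5.66%. Insr stood at 73.2, 71.8, 76.5 and 74.9 CPM in WT, at 52.7, 70.2, 70.1 and 63.5 CPM in HL1002P and at 81.5, 66.1 and 74.6 CPM in HH. Its WT libraries lay close together, and the HL1002P difference was log2 -0.21 ± 0.10 (edgeR adjusted p = 0.513). Igf1r stood at 16.3, 15.2, 18.1 and 17.9 CPM in WT, at 16.0, 14.5, 19.2 and 19.2 CPM in HL1002P and at 19.9, 18.1 and 23.5 CPM in HH. The lowest HH library (18.09 CPM) barely exceeded the highest WT library (18.08 CPM), and the HH difference was log2 0.28 ± 0.13 (edgeR adjusted p = 0.311).

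The adaptors were variable in gastrocnemius and did not pass. Irs2 stood at 20.96, 17.2, 37.7 and 14.9 CPM in WT, at 8.24, 15.3, 10.8 and 24.3 CPM in HL1002P and at 28.6, 9.50 and 9.02 CPM in HH. The groups overlapped, with differences of log2 -0.62 ± 0.43 and -0.53 ± 0.47 (edgeR adjusted p = 0.647 and 0.609). Irs1 stood at 64.1, 50.8, 114 and 93.3 CPM in WT, at 58.9, 71.6, 59.0 and 54.6 CPM in HL1002P and at 49.9, 68.7 and 53.7 CPM in HH. Its WT libraries took in all mutant libraries except 1 HH library at 49.9 CPM, and the differences were log2 -0.40 ± 0.22 and -0.49 ± 0.24 (edgeR adjusted p = 0.541 and 0.324).

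Akt1 came nearest to the threshold. It stood at 69.2, 73.4, 78.6 and 64.9 CPM in WT gastrocnemius, at 92.5, 75.1, 96.1 and 75.1 CPM in HL1002P and at 131, 91.3 and 104 CPM in HH. All 3 HH libraries lay above the 4 WT libraries, and the log2 difference was 0.61 ± 0.14 (edgeR adjusted p = 0.0728) in HH and 0.24 ± 0.13 (edgeR adjusted p = 0.532) in HL1002P. With DESeq2 the HH value was 0.60 (adjusted p = 0.00676), and without HH replicate 2 edgeR gave 0.72 (adjusted p = 0.0458). Akt2 stood at 359, 313, 296 and 339 CPM in WT, at 395, 304, 354 and 361 CPM in HL1002P and at 493, 412 and 350 CPM in HH. Its groups overlapped, and its HH value was 0.36 ± 0.13 (edgeR adjusted p = 0.210).

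Slc2a4 varied little between gastrocnemius libraries, at 727, 606, 646 and 678 CPM in WT, 606, 664, 739 and 779 CPM in HL1002P and 666, 719 and 641 CPM in HH. Its differences were log2 0.07 ± 0.10 and 0.02 ± 0.11 (edgeR adjusted p = 0.850 and 0.939).

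The test of whether a mutant's effect differs between the tissues passed Akt2 among the 10 genes in both mutants. The Akt2 effect in gastrocnemius exceeded that in fat by log2 0.78 ± 0.27 for HL1002P (edgeR adjusted p = 0.0491) and by log2 0.96 ± 0.28 for HH (edgeR adjusted p = 0.0435). This 1 of 10 genes stands beside 19% of 11870 genes past the test for HL1002P (8.9% with the higher value in gastrocnemius) and 7.39% for HH (3.35%). The Irs2 effects did not differ past the test between the tissues (log2 0.23 ± 0.51 and 0.42 ± 0.53, edgeR adjusted p = 0.761 and 0.627). Igf1 came near it in HH, at 1.49 ± 0.46 (edgeR adjusted p = 0.0541). Within male libraries the Akt2 values were 1.08 and 1.37 (edgeR adjusted p = 0.0493 and 0.0314), and within female libraries 0.22 and 0.27 (edgeR adjusted p = 0.759 and 0.592). The call passed in 4 of 16 fits that left out 1 library for HL1002P (without gastrocnemius HL1002P replicate 2 or fat WT replicate 3 or 4 or HL1002P replicate 4) and in 5 of 15 for HH (without gastrocnemius HH replicate 3 or fat WT replicate 3 or 4 or HH replicate 1 or 4). In the other fits the edgeR adjusted p reached at most 0.116 and 0.109.

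Around the 10 genes, 77 other genes of the pathway were listed by role, and 75 of them passed the filter on low counts in fat. In HL1002P fat 7 rose and 22 fell, which is 38.7% of those tested beside 31.8% of all genes. In HH fat 7 rose and 8 fell, which is 20% beside 20.8%. In gastrocnemius 0 of 74 passed in each comparison. By role, the counts in HL1002P fat were 2 risen and 4 fallen of 12 receptors and adaptors, 1 and 6 of 12 phosphoinositide 3-kinase subunits and kinases, 1 and 3 of 11 phosphatases and other inhibitors, 2 and 4 of 13 glucose transport genes, 0 and 3 of 11 downstream factors, 0 and 1 of 10 ligands, binding proteins and their proteases, and 1 and 1 of 6 genes of the growth hormone axis.

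Insrr, an orphan receptor of the insulin receptor family, stood at 1.24 to 2.503 CPM in WT fat, 5.87 to 12.2 CPM in HL1002P and 5.52 to 14.2 CPM in HH. Its log2 fold changes were 2.17 ± 0.36 and 2.42 ± 0.36 (edgeR adjusted p = 0.00775 and 0.00944), from a low level in WT. Ptpn1, the phosphatase that removes phosphate from the insulin receptor, rose from 73.6 to 88.8 CPM in WT to 110 to 175 CPM in HL1002P and 114 to 195 CPM in HH (log2 0.88 ± 0.20 and 0.87 ± 0.20, edgeR adjusted p = 0.0118 and 0.0174). Jak2, the kinase of the growth hormone receptor, rose by log2 0.51 ± 0.13 and 0.46 ± 0.13 (edgeR adjusted p = 0.0155 and 0.0300). No mutant library overlapped WT for these 3 genes. In fits that left out 1 library the HH call of Jak2 passed in 4 of 8 and was lost without WT replicate 1 or 2 or HH replicate 2 or 3 (edgeR adjusted p up to 0.0803). The HH call of Ptpn1 passed in 6 of 8 and was lost without HH replicate 2 or 3 (edgeR adjusted p up to 0.0613).

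Among the genes that fell in both mutant comparisons, Pik3cb, a catalytic subunit of phosphoinositide 3-kinase, went from 49.3 to 97.2 CPM in WT to 31.6 to 42.8 CPM in HL1002P and 34.6 to 39.4 CPM in HH. Its log2 fold changes were -1.08 ± 0.21 and -1.02 ± 0.21 (edgeR adjusted p = 0.00877 and 0.0134). Gsk3b, a kinase that AKT inhibits, fell by 0.61 and 0.66 on the log2 scale (edgeR adjusted p = 0.0106 and 0.0126). In HL1002P the glucose transporter gene Slc2a8 (log2 -0.78 ± 0.16), and Igf2r, the receptor that clears IGF2 (-0.65 ± 0.13), also fell (edgeR adjusted p = 0.00970 and 0.00954), and Tbc1d1, a regulator of GLUT4 traffic, rose (0.74 ± 0.19, edgeR adjusted p = 0.0171). In HH the adaptor Gab1 fell by 1.10 on the log2 scale (edgeR adjusted p = 0.0199). Igfals, which stabilises IGF1 in the circulation, fell from 22.04 to 239 CPM in WT to 11.8 to 21.1 CPM in HH (edgeR adjusted p = 0.0178), and the IGFBP protease Pappa2 rose from a mean of 0.247 to 1.18 CPM (edgeR adjusted p = 0.0150). The Gab1 and Igfals calls each passed in 6 of 8 fits that left out 1 library and were lost without HH replicate 2 or 3, with edgeR adjusted p up to 0.0679 and 0.0582. The Tbc1d1 call passed in 5 of 8 and was lost without WT replicate 1 or HL1002P replicate 1 or 3 (edgeR adjusted p up to 0.0537).

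**Figure D4:**
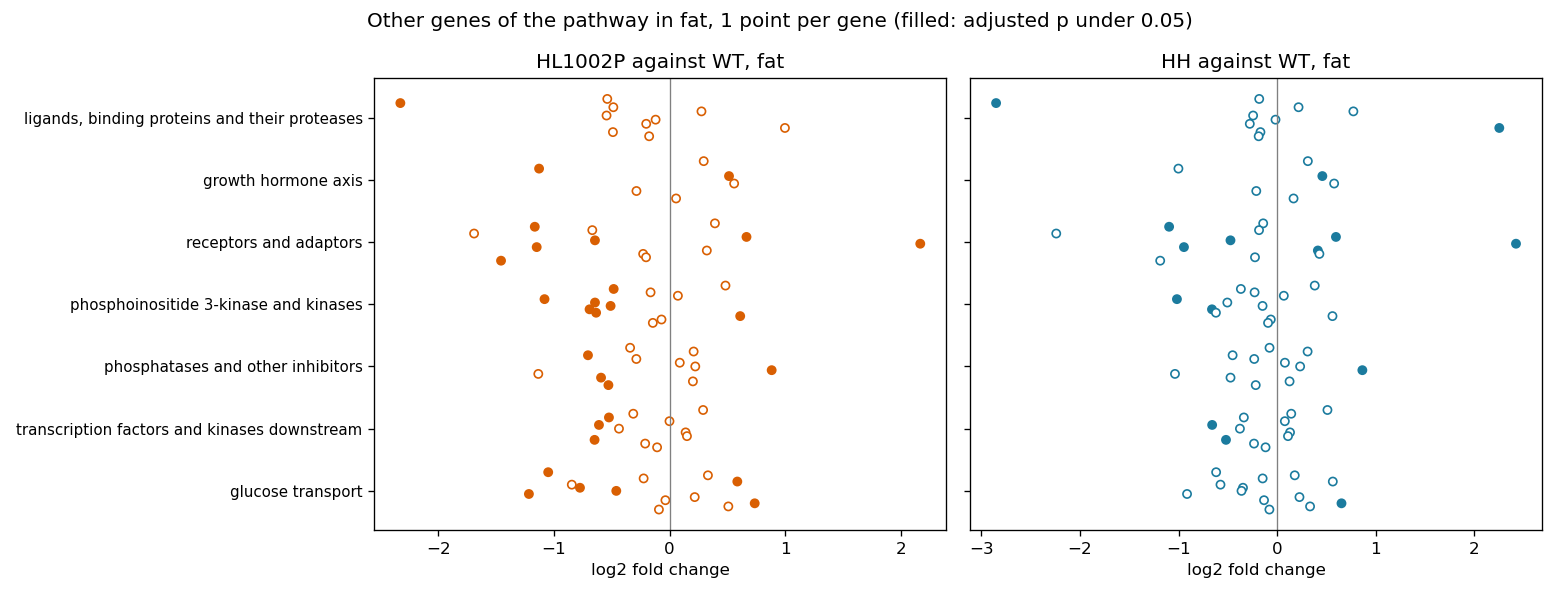
Log2 fold change against WT in fat of the 75 tested pathway genes outside the 10, grouped by role, for HL1002P (left) and HH (right); 1 point is 1 gene, and filled points have an edgeR adjusted p under 0.05. In HL1002P 7 filled points lie above 0 and 22 below, and in HH 7 and 8.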

How the data were processed

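The authors deposited raw read counts per gene for 23 libraries in 1 table. The submitters' processing notes list TopHat2 2.0.14, Bowtie2 2.2.6, featureCounts 1.4.6, Subread and the build mm10. Not given in the sources used here are annotation and strand setting. No strand is kept by the kit that the labels' protocols name, so overlapping antisense reads cannot be told apart. Of 24062 genes, 3605 had no count. Library totals of 22552184 to 58828571 counts set the counting error, and the SEs come from the spread between libraries.

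Genes were tested with edgeR 4.0.16 in R 4.3.3 (TMM scaling, filterByExpr, quasi-likelihood F tests, 1 fit per tissue, no covariate), with Benjamini-Hochberg adjustment over all genes tested and a threshold of 0.05. Both tissues entered 1 fit for the tissue comparison and for the difference of effects, the latter restricted to genes averaging 1 CPM or more in gastrocnemius and in fat. No animal is named, so libraries of both tissues were taken as independent, an assumption behind every p-value of these comparisons. Levels are CPM on TMM-scaled library sizes within a tissue, and log2 fold changes carry their SE. Exon lengths and gene positions came from the GENCODE annotation of GRCm38. All 10 genes are given with every library. Of the other pathway genes, up to 4 in each direction with the smallest p were named per comparison. Like genes were those of highest Spearman correlation of log2 CPM, searched among named genes of at least 5 CPM. The members and lists were chosen with earlier results of these data known. The labels name no sex, so male and female here mean Y-linked transcripts or Xist in the library.

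Alternatives were DESeq2 1.42.0, other scalings, filters and covariates, each sex alone, a replicate block and each library left out. Library size alone, leaving out the fat libraries over 5000 CPM of muscle fibre markers, and males low in those markers were chosen after seeing the data. Same-numbered HL1002P and HH gastrocnemius libraries deviated together (3 pairs, r = 0.271 to 0.363 across genes). HL1002P replicate 4 and HH replicate 3, both female, did so more (r = 0.420). The correlations therefore do not show that the numbers pair the libraries. The blocked fit passed 12 genes in place of 3 and 0 of the 10 genes in either. The procedure was first tested on simulated counts with known changes, 100 genes at each size. A log2 change of 1 was recovered in 30% of them for HL1002P and 33% for HH against WT fat. The shares were 18% between the mutants in fat and 38% and 27% for the differences of effects. Against WT gastrocnemius they were 69% and 56%. A log2 change of 2 was recovered in 66% to 89% in every comparison. A gene that did not pass can therefore still differ.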

Additional observations from a re-analysis of the deposited data

Results flagged for a closer look

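In fat labelled HL1002P, replicate 4 stood apart from replicates 1 to 3 in 4 of the 10 genes, its gap to the nearest of them exceeding Dixon's critical value for 4 libraries. Its levels were 93.9 CPM for Irs1, 229 CPM for Slc2a4, 723 CPM for Igfbp4 and 1053 CPM for Igfbp5. This was the only female library of its group, and it was the group's highest in muscle fibre markers (6115 CPM) and fat cell markers (30172 CPM) and lowest in lymphocyte markers (1487 CPM). The part of these in the gap was not tested. Chance flags about 1 group in 20, and 4 of 50 groups of these genes were flagged, all by this library.

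Effects that differed between gastrocnemius and fat by the edgeR interaction test are given as the gastrocnemius effect minus the fat effect on the log2 scale. For HL1002P they were 0.78 for Akt2, 0.68 for Slc2a8, 1.15 for Gab1, 0.91 for Igf2, 1.22 for the GLUT4 sorting receptor Sort1, -0.75 for the adaptor Grb2 and -0.54 for the adaptor Sh2b1. For HH they were 0.96 for Akt2, 1.32 for Pik3r1, the regulatory subunit of phosphoinositide 3-kinase, and -0.85 for Grb2. Beside Akt2 these are the pathway genes of smallest p in each direction, out of 10 higher and 2 lower for HL1002P and 1 higher and 1 lower for HH among 72 tested.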

How the results depend on the processing

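Of the 10 genes, the count past the test in fat for HL1002P against WT, 3 here, was 5 with DESeq2, 1 on library size alone, 1 with no filter on low counts, 5 in male libraries, 0 in female libraries, 0 with the replicate block, 0 with the lymphocyte and 0 with the fat cell marker covariate, 7 in male libraries low in muscle fibre markers and 8 without the libraries high in them. The corresponding HH count, 3, was 1 on library size alone, 1 with no filter, 1 with sex as a covariate, 5 in males, 0 in females, 0 with either marker covariate and 9 in males low in fibre markers. Leaving out 1 library gave 1 to 7 for HL1002P and 1 to 4 for HH. In HH against WT gastrocnemius DESeq2 passed 1 gene in place of 0, and leaving out 1 library gave 0 to 1.

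The difference of effects between tissues passed 1 gene in each mutant. For HL1002P the count was 2 with DESeq2, 0 with RLE size factors, on library size alone, with no filter, with sex as a covariate, in females and with the replicate block, 3 in males and 5 without the high-fibre libraries. For HH it was 2 with DESeq2, 0 with no filter, in females and with the block, 2 in males and 2 without the high-fibre libraries. Leaving out 1 library gave 0 to 3 and 0 to 2. WT gastrocnemius against WT fat passed 5 to 7 of the genes when 1 library was left out, in place of 6. Signs reversed for Insr in HL1002P fat with the lymphocyte covariate (0.0141), and between tissues on library size alone for Insr (-0.70), Irs1 (-0.28), Akt2 (-0.47) and Igf1r (-0.92). The cause of these changes was not tested.

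Same-numbered libraries in the other comparisons did not all deviate together, and the labels name no animal. The replicate block thus groups libraries known to share only a number. With it Irs2 stood at log2 -0.91 in HL1002P fat (edgeR adjusted p = 0.0720) and -0.99 in HH fat (edgeR adjusted p = 0.0191).

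Over all genes, HL1002P against WT fat passed 5167 genes, 8773 in males low in fibre markers, 0 in females, with the block or with the lymphocyte covariate and 1 with the fat cell covariate. HH against WT fat passed 3391 genes, 5155 with DESeq2, 6246 in males, 8357 in males low in fibre markers, 5505 without the high-fibre libraries, 1814 with the block, 364 with the fat cell covariate and 0 in females or with the lymphocyte covariate. HL1002P against HH fat passed 0 genes, 21 with DESeq2, 5 with the fat cell and 2 with the lymphocyte covariate, and 1 with the compared groups only or in males low in fibre markers. In gastrocnemius the counts of 17, 55 and 3 genes (HL1002P and HH against WT, HL1002P against HH) became 179, 628 and 40 with DESeq2, 5, 26 and 1 at a mean of at least 5 CPM, and 7, 15 and 12 with the block. HL1002P against WT also gave 10 on library size alone, 2 in males, 0 in females, 8 with the compared groups only and 5 with the macrophage covariate. HH against WT gave 225 with sex as a covariate, 6 in males, 15 in females and 85 with the compared groups only, and HL1002P against HH gave 1 in females. The differences of effects passed 2255 and 877 genes, 1485 and 483 with no filter, 0 and 2 in females, and 4746 and 2850 without the high-fibre libraries, and for HH 1624 with DESeq2, 532 on library size alone and 1833 in males.

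Of 848 values of the 10 genes that passed in neither setting, 90 had the other sign. The lowest mean of a member was 9.56 CPM (Igf1 in WT gastrocnemius, 210 to 745 counts in a library). The part of depth in these tests was not tested.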

Other observations

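The pattern of each gene that passed a test in fat was compared with all 11597 named genes of at least 5 CPM over the 12 fat libraries, as a description with no test. Irs2 was most like Cyp4f17 and Hgf, the gene of hepatocyte growth factor (Spearman's rho 0.923 for both). Akt2 was most like the basement membrane chain gene Lama4 (0.993) and Aifm2 (0.986), and Insr was most like Kank3 (0.965) and Dirc2 (0.958). Igf1 was most like Pyurf and Tmem126b (0.972 for both), and Igfbp5 was most like Ddah2 and Fam20a (0.965 for both). Among the 10 genes themselves the closest pair was Slc2a4 and Igfbp4 (0.930), followed by Irs2 and Igfbp5 (0.818).

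Between the tissues, 4 other pathway genes were higher in WT gastrocnemius with the smallest p, namely Gsk3a (log2 1.82), Stat5b (2.74), Foxo4 (2.99) and Sh2b1 (1.81). The corresponding 4 in WT fat were Irs3 (-3.90), Sh2b2 (-2.45), Igfbp7 (-1.31) and Shc1 (-0.89). All 8 kept their direction on library size alone.

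Mammary epithelium markers, listed because fat pads can hold mammary gland, summed to 807 to 2633 CPM in the 4 female fat libraries and to 3.08 to 183 CPM in 7 of the 8 male ones, with 1250 CPM in HH replicate 2. Wap, a milk protein gene, was at 0 in every library.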
